A study of Oncorhynchus mykiss with 20 samples.

Results

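Intestinal messenger RNA of a selected rainbow trout strain, Select (ARS-KO), was compared with that of a widely used commercial strain, Commercial, in whole intestines of Oncorhynchus mykiss fry at 20 days post hatch (dph). The comparison took the 10 libraries labelled with that age out of 20 in the series, 5 from each strain, each library labelled as a separate biological replicate. The other 10 libraries, 5 from each strain at 65 dph, entered only as a second age and in the shared estimate of the spread. All fish were female, came from eggs of both strains reared together, and from hatching lived in flow-through spring water at 15 °C, where each strain had raceways of its own. Every fish ate the same commercial trout starter diet, and the fish sampled at 20 dph had been feeding for 10 days. Strain and raceway cannot be told apart in this design. How many fish went into one library is not given in the sources used here, so the p values measure only the spread between these samples, which may in part be technical.

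At this age a trout fry has only recently begun to live on external food. Its intestine is a simple tube whose enterocytes digest peptides and lipids at the brush border, take up whole proteins by endocytosis in the hind part, and pass lipids into lipoproteins. Lymphocytes and macrophages settle in the epithelium and lamina propria during the same weeks. Immediate early genes, such as jun and dusp1, are switched on within minutes by growth factors, feeding or stress and are quickly switched off again, and genes of the circadian clock follow the time of day.

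The tissue was checked through its markers. In TPM, a length-scaled abundance, fabp2, the intestinal fatty acid-binding protein, lay between 8569.6 and 15294 over the 10 libraries. The brush-border peptidase anpepb lay between 1255 and 3217 TPM, the alkaline phosphatase alpi.2 between 293 and 716, and the peptide transporter slc15a1a between 140.1 and 285. Some other markers were less even. The meprin gene mep1b lay between 2.60 and 193 TPM, with medians of 75.6 in Commercial and 15.7 in Select. The chitinase gene chia.1 lay between 83.5 and 1688 TPM, with medians of 943 in Commercial and 454 in Select. Neither gene was among the features called below. Totals were 9241051 to 12442368 expected counts in Commercial and 8115051 to 9791826 in Select, so counting error is small for abundant genes. Of the 61670 features, which are genes or single transcripts that no gene name matched, 32166 passed the filter on low counts.

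One library stands apart. In Select replicate 1 the liver list, 16 genes of which 11 were tested, held 2.2% of all counts, against 0.0194% to 0.0562% in the other 4 Select libraries and 0.0443% to 0.0974% in Commercial. The skeletal muscle list held 0.128% of its counts, against 0.00345% to 0.00477% in the other 9 libraries. The liver secretes transferrin, and tfa measured 9604 CPM (counts after TMM scaling for library size) in Select replicate 1, 3.81 to 33.3 CPM in the other Select libraries and 8.40 to 166 CPM in Commercial. The creatine kinase gene ckmb of muscle measured 342 CPM there and no more than 5.77 CPM in any other library. Brush-border enzymes held 0.673% of its counts, the lowest share of the 10 libraries, which otherwise ran from 1.00% to 1.39%. Every result below was therefore also computed without this library. In whole tissue, fewer cells of a type and less RNA per cell cannot be told apart.

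**Figure D1:**
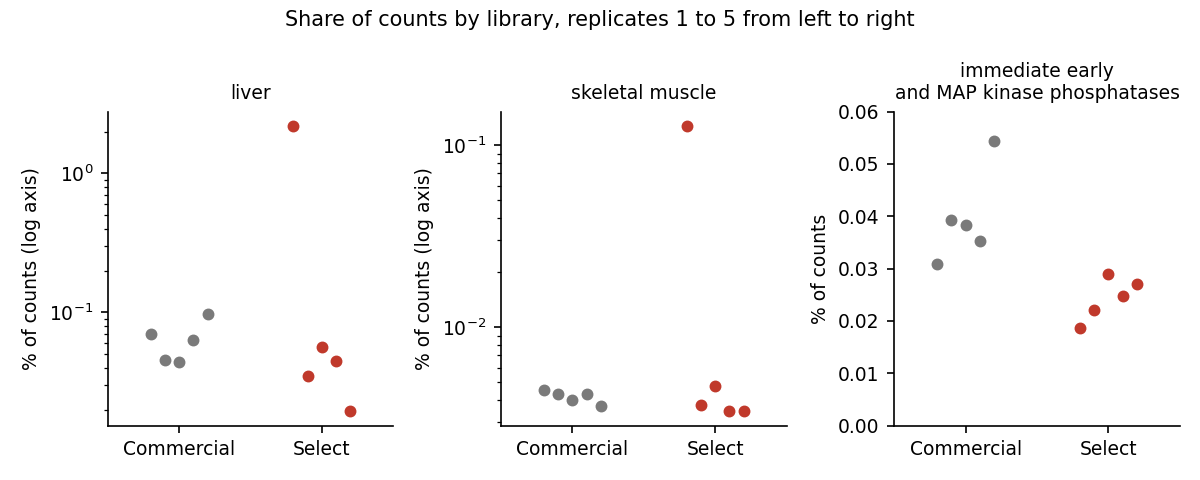
Share of all counts held by 3 gene lists in each of the 5 Commercial (grey) and 5 Select (red) libraries at 20 dph, with replicates 1 to 5 from left to right; the first 2 axes are logarithmic. Select replicate 1 reaches 2.2% for liver and 0.128% for muscle, while for immediate early genes all 5 Select libraries lie at or below 0.0289% and all 5 Commercial libraries at or above 0.0308%.

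Of the 32166 features tested, 51 were called between the strains at 20 dph (0.159%), with an adjusted p under 0.05 in edgeR's quasi-likelihood test. Select was higher for 34 (0.106%) and lower for 17 (0.0529%). An unadjusted p under 0.05 was reached by 3316 features (10.3%), 1780 of them higher in Select (5.53%) and 1536 lower (4.78%). All 5 Select values lay on one side of all 5 Commercial values for 48 of the 51 called features, and for 706 of all features (2.19%), 341 of them higher (1.06%) and 365 lower (1.13%). The 51 were called from these same values, so their separation was largely fixed by the call and is a description. Called features comprised 7 genes with a symbol, 19 with a LOC name and 25 single transcripts.

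Among called genes with a symbol, acsl4a had the lowest p and the highest fold change above 0. It encodes a long-chain acyl-CoA synthetase that in mammals prefers arachidonic acid and related polyunsaturated fatty acids. It measured 92.3, 78.7, 117, 79.2 and 49.3 CPM in Select replicates 1 to 5, and 29.2, 24.6, 26, 35.6 and 22 CPM in Commercial. Every Select library lay above every Commercial library, with a log2 fold change of 1.6 ± 0.24 (SE) and an adjusted p of 0.0201. The call was lost only without Commercial replicate 2 (adjusted p = 0.0627), and all 7 other settings of the fit kept it. It was the 1 called gene among 17 tested genes of acyl-CoA, lipid and phospholipid metabolism, a list whose median log2 fold change was -0.05. Of all features 0.106% were called higher.

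A T cell gene was also called higher in Select. The gene cd3e, a signalling chain of the T cell receptor complex, measured 7.16, 9.02, 5.66, 7.19 and 7.38 CPM in Select and 3.76, 3.36, 4.58, 3.88 and 2.87 CPM in Commercial. The strains did not overlap (log2 fold change 0.98 ± 0.17 SE, adjusted p = 0.0284). The adjusted p ran from 0.0332 to 0.0847 when each of the 10 libraries was left out, and the call ended without Commercial 1, 2, 4 or 5 or Select 2, 4 or 5, though it held without Select replicate 1 (0.0446).

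The other 3 called genes higher in Select have no list in common. The endoplasmic reticulum ATPase gene tor2a, of the torsin family, measured 30.4, 36.8, 32.2, 32.8 and 31.3 CPM in Select against 20.9, 17.5, 20.9, 23.6 and 16.4 CPM in Commercial. The 5 Select values lay close together and above all Commercial values (0.72 ± 0.13 SE, adjusted p = 0.0297). When 1 of the 10 libraries was left out, the call of tor2a held only without Select replicate 1. For zgc:56585, a gene known here by its zebrafish clone name, Select held 68.5, 58.0, 59.0, 39.1 and 65.1 CPM and Commercial 24.3, 28.0, 24.9, 22.5 and 34.3 CPM. These groups did not overlap either, although Select replicate 4 came near the highest Commercial library (1.11 ± 0.20 SE, adjusted p = 0.0291; 0.0516 without Select replicate 1). The PQ-loop membrane protein gene slc66a3 measured 12.0, 16.7, 8.82, 13.5 and 14.0 CPM in Select against 6.62, 6.60, 6.43, 8.94 and 6.47 CPM in Commercial. Here Select replicate 3 fell just below Commercial replicate 4, so the groups overlapped (0.89 ± 0.17 SE, adjusted p = 0.0393; 0.0516 without Select replicate 1). With each of the 10 libraries left out in turn, the call of zgc:56585 ended for 8 of them, and that of tor2a and of slc66a3 for 9. Their highest adjusted p in those fits were 0.0822, 0.0875 and 0.0973. Of the 7 other settings, 6 kept the call of zgc:56585, 5 that of tor2a and 4 that of slc66a3.

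Both called genes with a symbol that were lower in Select are regulators, one of signalling and one of transcription. The phosphatase gene dusp1, which switches off MAP kinases and is itself induced by growth factors, stress and glucocorticoids, measured 6.45, 8.65, 5.77, 7.07 and 9.34 CPM in Select. Commercial held 14.6, 22.9, 17.2, 22.1 and 49.2 CPM, so no values overlapped and Commercial replicate 5 stood highest (log2 fold change -1.75 ± 0.33 SE, adjusted p = 0.0387). The clock repressor gene nr1d2a, a REV-ERB nuclear receptor, measured 14.6, 18.8, 17.4, 14.1 and 23.1 CPM in Select. Commercial held 29.9, 30, 36.2, 24.6 and 47.2 CPM, again all above Select (-0.93 ± 0.18 SE, adjusted p = 0.0454). Without Select replicate 1 the adjusted p was 0.0712 for dusp1 and 0.0847 for nr1d2a. Leaving out 1 library ended the call of dusp1 for 8 of 10 libraries and that of nr1d2a for 9 of 10, with adjusted p no higher than 0.0925 and 0.108. Of the 7 other settings, 4 kept the call of dusp1 and 4 that of nr1d2a.

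**Figure D2:**
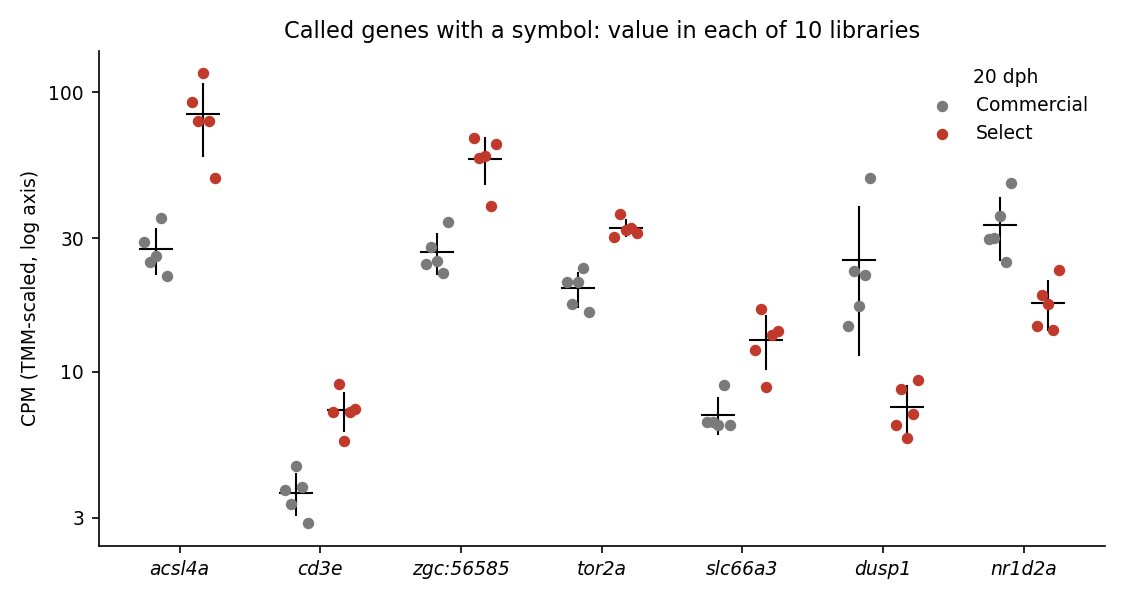
Expression in CPM (log axis) of the 7 called genes with a symbol in each of the 5 Commercial (grey) and 5 Select (red) libraries at 20 dph; the horizontal mark and vertical line are the mean and SD of 5 libraries. The groups are separate for every gene except slc66a3, and Commercial replicate 5 is the highest point for dusp1 (49.2 CPM) and nr1d2a (47.2 CPM).

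The immediate early genes lay mostly below 0 as a list, beyond the 1 called member (0.0529% of all features were called lower). Of 18 tested members, which include the MAP kinase phosphatases and early stress genes, 17 had a log2 fold change below 0 (50.7% of all features), and 9 an unadjusted p under 0.05 in that direction (4.78% of all features) against 0 in the other. The median was -0.57, against -0.00 over all features tested. All 22 genes of the list, of which 18 were tested, together held 0.0308% to 0.0544% of counts in Commercial and 0.0186% to 0.0289% in Select. These summed levels did not overlap. Without Select replicate 1 the median was -0.54, with 16 of 18 below 0, 8 of them at an unadjusted p under 0.05 and 0 called. Over the 10 fits that leave out 1 library it ran from -0.66 to -0.51.

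Among these members, ier2b measured 20.3, 28.6, 26, 25.6 and 29.0 CPM in Select and 32.0, 48.4, 44.9, 37.5 and 30.9 CPM in Commercial (-0.58 ± 0.16 SE, adjusted p = 0.164). The zinc finger gene klf6a, another early response gene, ran from 15.1 to 20.1 CPM in Select and from 20.6 to 33.5 CPM in Commercial (-0.63, adjusted p = 0.245). For neither did the strains overlap. The AP-1 subunit gene jun averaged 18.8 ± 3.58 CPM in Select against 34.3 ± 9.90 CPM in Commercial (mean ± SD, n = 5 each; -0.87, adjusted p = 0.186), and the stress-induced atf3 averaged 25.4 ± 6.31 and 41.0 ± 10.3 CPM (-0.69, adjusted p = 0.260). Both of these overlapped between strains.

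Members differed in where Commercial replicate 5 stood. It was the lowest of the 10 libraries for fosb and egr3. It was the lowest Commercial library for jun, fosl2, klf2a, klf6a, atf3, ier2b and klf11a. Across the 18 members its median deviation from the median of the 10 libraries was 0.05 on the log2 scale. Commercial replicate 5 was the highest of the 10 libraries for 8 of the 18 members. In it fkbp5, a chaperone of steroid receptors that glucocorticoids induce in mammals and fish, reached 217 CPM, against 27.4 to 37.0 CPM in the other Commercial libraries and 14.9 to 37.2 CPM in Select (-1.76, adjusted p = 0.369). The glucocorticoid-responsive klf9 reached 29.3 CPM there, against 3.71 to 5.68 and 0.860 to 3.38 CPM (-2.33, adjusted p = 0.198). For klf9 all 4 remaining Commercial libraries still exceeded every Select library. With that Commercial library left out, 14 of the 18 members lay below 0, 10 had an unadjusted p under 0.05, 0 were called and the median was -0.66.

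**Figure D3:**
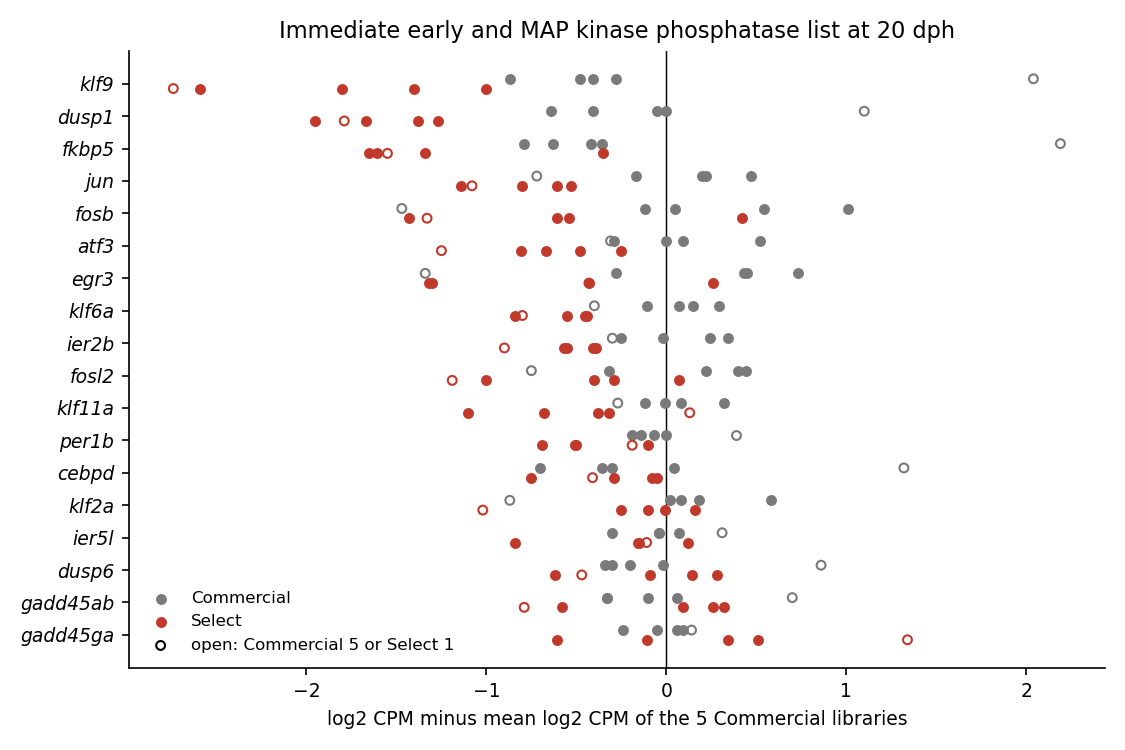
Each of the 18 tested immediate early and MAP kinase phosphatase genes in the 5 Commercial (grey) and 5 Select (red) libraries at 20 dph, as log2 CPM minus the mean log2 CPM of the 5 Commercial libraries; open points are Commercial replicate 5 and Select replicate 1. The Select points lie left of 0 for most members, with klf9 and dusp1 farthest. Commercial replicate 5 lies far to the right for klf9, dusp1 and fkbp5, and far to the left for fosb and egr3.

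The 4 genes of this paragraph lie outside that list and were picked from genes whose strains do not overlap, so their separation was fixed by the choice. The cytokine signalling inhibitor gene socs3 measured 4.01, 2.76, 4.68, 5.61 and 2.83 CPM in Select and 6.36, 23.3, 11.2, 8.11 and 12.6 CPM in Commercial (-1.62 ± 0.34 SE, adjusted p = 0.0620). The lipoprotein lipase inhibitor gene angptl4, which fasting and fatty acids induce in mammals, measured 19.8, 29.8, 26, 16.3 and 21.6 CPM against 38.3, 44.6, 51.2, 39.9 and 52.8 CPM (-1.0 ± 0.21 SE, adjusted p = 0.0670). The transcriptional repressor gene prdm1b, whose mouse counterpart marks the suckling-age gut epithelium, measured 2.44 to 5.26 CPM in Select and 5.39 to 11.8 CPM in Commercial (-1.25 ± 0.29 SE, adjusted p = 0.102). The fourth, cnppd1, stood at 10.7 to 14.0 CPM in Select against 15.8 to 20.2 CPM in Commercial (-0.55, adjusted p = 0.0620). None of the 4 passed the threshold.

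The circadian clock list leaned the same way with smaller values. Of 16 tested members 1, nr1d2a, was called lower (0.0529% of all features) and 12 lay below 0 (50.7% of all features). An unadjusted p under 0.05 was reached by 3, all lower (4.78% of all features). The median log2 fold change was -0.25. Over the 10 fits that leave out 1 library it ran from -0.33 without Commercial replicate 3 to -0.15 without Select replicate 2, with 2 to 4 members lower at an unadjusted p under 0.05. The REV-ERB paralogue nr1d4b ran from 7.19 to 11.3 CPM in Select and from 12.0 to 17.7 CPM in Commercial, without overlap (-0.58 ± 0.18 SE, adjusted p = 0.218). The values were -0.39 for the activator arntl2, -0.35 for the REV-ERB gene nr1d2b and -0.48 for the repressor bhlhe41, with adjusted p of 0.478, 0.524 and 0.574. The hour at which each fish was sampled is not given in the sources used here, so its part in these values was not tested.

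Cholesterol synthesis showed no called member among 15, of which 12 lay below 0 (50.7% of all features). The unadjusted p was under 0.05 for 3 lower members and 1 higher member (4.78% and 5.53% of all features). The median log2 fold change was -0.44, or -0.54 without Select replicate 1. The sterol sensor gene insig1 measured 69.4, 77.1, 60.7, 57.3 and 78.1 CPM in Select and 109, 108, 80.8, 103 and 193 CPM in Commercial, without overlap (-0.79 ± 0.21 SE, adjusted p = 0.141). The prenyl synthase gene fdps was more scattered, at 111, 20.4, 19.9, 28.4 and 81.0 CPM in Select against 135, 169, 125, 107 and 49.5 CPM in Commercial. Select replicates 1 and 5 lay within the Commercial range for fdps (-1.17, adjusted p = 0.341).

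The sterol enzymes nsdhl (-0.70, adjusted p = 0.322) and tm7sf2 (-0.55, adjusted p = 0.618) also varied within Select. For nsdhl, replicates 1 and 5 held 122 and 160.0 CPM and replicates 2, 3 and 4 held 74.3, 75.1 and 58.5 CPM, against 113 to 193 CPM in Commercial. When Select replicate 5 was left out, 8 of the 15 members had a lower value at an unadjusted p under 0.05, and the median was -0.63. That was the lowest of the 10 medians with 1 library left out, and the highest was -0.30 without Select replicate 2, with 3 such members. The phosphomevalonate kinase gene pmvk went the other way, at 12.2 to 15.7 CPM in Select against 9.10 to 11.1 CPM (0.37 ± 0.10 SE, adjusted p = 0.164).

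Uptake and burning of lipid gave few differences. The intestinal cholesterol importer npc1l1 measured 575, 659.7, 628, 846 and 1300.1 CPM in Select and 974 to 1294 CPM in Commercial, so 4 Select libraries lay below the Commercial range and the fifth above it (-0.51 ± 0.18 SE, adjusted p = 0.301). Without Select replicate 5 npc1l1 was called lower (-0.76, adjusted p = 0.0445). The median of the 8 tested genes of lipid absorption and lipoproteins was 0.09, and -0.01 to 0.15 with 1 library left out. The apolipoprotein B gene apoba, made by both liver and intestine, had a log2 fold change of 1.15 with all libraries and of -0.11 without Select replicate 1. Of 18 fatty acid oxidation genes 0 were called and 14 lay below 0 (50.7% of all features). Their median was -0.10 (-0.20 without Select replicate 2). Without Select replicate 1 the median was -0.07, with 11 of the 18 below 0. The carnitine palmitoyltransferase gene cpt1ab measured 10.5, 3.63, 14.5, 5.36 and 14.1 CPM in Select and 14.4 to 21.9 CPM in Commercial (-0.84 ± 0.30 SE, adjusted p = 0.300). The mitochondrial reductase gene decr1 ran from 88.1 to 109.5 CPM against 115 to 121 CPM, without overlap (-0.25, adjusted p = 0.404).

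Among 4840 tested genes with a symbol and a mean log2 CPM of at least 1, the strains did not overlap for 100, of which 56 were higher and 44 lower in Select. This is 2.07%, near the 2.19% over all features. Among those with the lowest p was a pair from the peroxisome, which no list held and which was singled out after the values were seen. The peroxisomal oxidase gene pipox, which breaks down sarcosine and pipecolic acid, measured 94.4, 149, 110.5, 147 and 86.3 CPM in Select and 50.3, 20.9, 57.5, 56.2 and 67.6 CPM in Commercial (1.22 ± 0.29 SE, adjusted p = 0.107). The peroxisomal protease gene lonp2 measured 121, 122, 99.9, 121 and 127 CPM against 66.1, 92.7, 91.4, 77.0 and 88.4 CPM (0.51 ± 0.12 SE, adjusted p = 0.114). Neither passed the threshold.

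Lysosomal and endocytic genes leaned toward Select. Of 20 tested, 0 were called, 16 lay above 0 (49.2% of all features), and the median log2 fold change was 0.19. Without Select replicate 1 the median was 0.32, and 6 members had an unadjusted p under 0.05 in that direction instead of 2. That is the highest of the 10 medians with 1 library left out. The lowest was 0.11 without Commercial replicate 1, and 12 to 16 members lay above 0 in these fits. Members higher at that p numbered 0 without Commercial replicate 1 or 4, or without Select replicate 2, 3, 4 or 5. The cathepsin gene ctsh measured 302, 585, 556, 569 and 708 CPM in Select and 294, 408, 478, 240.4 and 468 CPM in Commercial (0.53 ± 0.23 SE, adjusted p = 0.417). Select replicate 1 was the lowest Select library for it, within the Commercial range, while the other 4 lay above that range. The same held for ctsa, at 307 CPM in Select replicate 1, 499 to 623 CPM in the other Select libraries and 283 to 459 CPM in Commercial (0.44, adjusted p = 0.444). The value of ctsc was 0.53 (adjusted p = 0.525). The lysosomal sterol exporter gene npc1 was an exception, at 183 ± 67.9 CPM in Select against 279 ± 88.8 CPM in Commercial (mean ± SD, n = 5 each; -0.61, adjusted p = 0.417).

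At the brush border, the median of 11 enzymes was -0.16, and -0.03 without Select replicate 1. Of these, ggt1b, a gamma-glutamyl transferase, measured 168, 296, 347, 344 and 356 CPM in Select and 125, 209, 236, 190.4 and 213 CPM in Commercial (0.64 ± 0.19 SE, adjusted p = 0.218). Again Select replicate 1 alone lay within the Commercial range. Of 11 nutrient and ion transporters the proton-coupled folate transporter gene slc46a1 ran from 18.2 to 39.5 CPM in Select and from 12.8 to 31.9 CPM in Commercial (0.69, adjusted p = 0.378). That list's median was 0.02, and -0.12 to 0.20 with 1 library left out. Its log2 fold changes ran from -2.09 to 0.69. At an unadjusted p under 0.05, 1 member was higher and 1 was lower (5.53% and 4.78% of all features).

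No member of the immune cell lists other than cd3e was called (0.106% of all features were called higher). Of 10 tested T cell and cytotoxic genes 8 lay above 0 (49.2% of all features). An unadjusted p under 0.05 was reached by 2, both higher (5.53% of all features), and the list median was 0.37. With 1 library left out it ran from 0.26 without Select replicate 4 to 0.55 without Commercial replicate 3. The T cell transcription factor gene tcf7 measured 0.860, 2.38, 2.18, 2.93 and 2.09 CPM in Select and 1.88, 1.27, 1.2, 1.29 and 1.08 CPM in Commercial (0.63 ± 0.24 SE, adjusted p = 0.358). Only Select replicate 1 fell below the Commercial range, and the other 4 lay above it. The co-receptor cd8a had a value of 1.24 at no more than 0.627 CPM in any library (adjusted p = 0.556), and LOC100136274, whose synonym in the gene table is cd28, a value of 0.85 (adjusted p = 0.651). The interleukin-7 receptor gene il7r stood at 0.31 (adjusted p = 0.694) and the pore-forming prf1 at -0.46 (adjusted p = 0.671).

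Of 4 tested B cell genes 3 lay above 0 (49.2% of all features) and 1 below, at -0.29, with a median of 0.34. An unadjusted p under 0.05 was reached by 1, which was higher (5.53% of all features). The adaptor gene blnk measured 9.26 to 11.2 CPM in Select and 6.0 to 9.67 CPM in Commercial (0.44 ± 0.16 SE, adjusted p = 0.324). The receptor chain cd79b had a value of 0.81 (adjusted p = 0.576). Of 9 macrophage and granulocyte genes 6 lay above 0 (49.2% of all features) and 3 below, from -0.84 to 0.49. Their median was 0.15, and 0.11 to 0.23 with 1 library left out. Without Select replicate 1, 5 lay above 0 and 4 below. The pore-forming mpeg1.1, the highest of the list, averaged 26.7 ± 6.12 CPM in Select against 19 ± 4.65 CPM in Commercial (mean ± SD, n = 5 each, log2 fold change 0.49, adjusted p = 0.277). The genes cd18 and lbp/bpi-1 are in none of the lists and were picked from genes whose strains do not overlap. Their separation was therefore fixed by the choice. The leukocyte integrin chain cd18 measured 11, 13.2, 12.2, 16.2 and 11.1 CPM in Select and 8.50, 7.76, 9.16, 9.64 and 8.86 CPM in Commercial, without overlap (0.54 ± 0.13 SE, adjusted p = 0.102). The gene lbp/bpi-1, of the family that binds bacterial lipopolysaccharide, measured 8.88, 15.2, 8.28, 7.56 and 8.85 CPM against 4.39, 3.13, 7.31, 5.06 and 5.51 CPM, also without overlap (0.94 ± 0.22 SE, adjusted p = 0.0912). Of 18 interferon-stimulated genes 13 lay above 0 (49.2% of all features). An unadjusted p under 0.05 was reached by 3, all higher (5.53% of all features), and the median was 0.17. That median ran from 0.08 without Select replicate 3, with 11 above 0, to 0.31 without Commercial replicate 1, with 16 above 0, and was 0.29 without Select replicate 1. The RIG-I ubiquitin ligase gene trim25 measured 82.3 to 94.7 CPM in Select against 65.5 to 76.7 CPM (0.32 ± 0.11 SE, adjusted p = 0.263), and isg20, an antiviral exonuclease, stood at 0.61 (adjusted p = 0.394).

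Genes of antigen presentation by MHC class I went both ways. Of 16 tested 0 were called. At an unadjusted p under 0.05, 4 were higher (5.53% of all features) and 1 was lower (4.78% of all features). The median log2 fold change was 0.07 (0.01 without Commercial replicate 5). The peptide editor gene tapbpl measured 3.44, 6.64, 3.16, 2.56 and 4.43 CPM in Select and 0.537, 0.463, 1.53, 2.12 and 1.68 CPM in Commercial, without overlap (1.68 ± 0.41 SE, adjusted p = 0.117). The proteasome activator gene psme2 stood at 0.32 (adjusted p = 0.349).

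Immunoproteasome subunits, the proteasome parts that cut peptides for MHC class I, differed between gene copies. The copy psmb9a measured 12.6, 28.1, 22.2, 22.2 and 16.6 CPM in Select and 12.0, 10.7, 13.6, 12.7 and 8.86 CPM in Commercial (0.81 ± 0.22 SE, adjusted p = 0.158). Its neighbour psmb8a averaged 28.0 ± 7.97 CPM in Select against 16.2 ± 3.13 CPM in Commercial (mean ± SD, n = 5 each; 0.79, adjusted p = 0.182). For both genes Select replicate 1 was the only Select library within the Commercial range. The table's other psmb9 copy, LOC100135882, measured 13.2, 25.2, 8.28, 10.2 and 6.64 CPM in Select and 26.2, 22.7, 36.2, 19.5 and 19.3 CPM in Commercial (-0.97 ± 0.30 SE, adjusted p = 0.228). The second psmb8 copy, psb8, measured 2.15, 5.89, 0, 0 and 0 CPM in Select and 4.48, 4.75, 13.4, 4.82 and 5.63 CPM in Commercial (-2.06, adjusted p = 0.528). Select replicate 2 was the Select library within the Commercial range for these last 2 genes. In the gene table each pair lies on 1 chromosome with 2 genes between them, and the pairs lie on different chromosomes. Reads of near-identical copies are divided by the counting tool, so the split between copies is uncertain.

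Cell division, ribosome, proteasome and respiration lists had no member at the unadjusted threshold. Of 21 cell cycle, 32 ribosomal protein, 17 proteasome and 25 respiratory chain genes 0 had an unadjusted p under 0.05, and their medians were -0.14, -0.00, 0.03 and -0.06. Without Select replicate 2, 4 ribosomal protein and 5 respiratory chain genes were lower at that p. Without Select replicate 1, 1 ribosomal protein gene was lower. Ribosomal protein genes were higher in other fits, 2 without Commercial replicate 4 or Select replicate 4, and 1 without Select replicate 3 or 5. Without Commercial replicate 3, 1 cell cycle gene was lower and 1 proteasome gene higher. Without Select replicate 3, 1 cell cycle gene was lower. Of 15 glycolysis and gluconeogenesis genes 3 were higher and 0 lower at an unadjusted p under 0.05 (5.53% and 4.78% of all features). Without Select replicate 1, 2 of these genes were higher and 2 lower at that p (5.6% and 5.19% of all features). Their log2 fold changes ran from -1.12 to 1.03 with a median of 0.03. Of 23 translation factor and tRNA synthetase genes 2 were higher and 0 lower at that p, with a median of -0.06 and a highest value of 1.11. The shares over all features were again 5.53% and 4.78%. Without Select replicate 1, 2 of the 23 were higher and 1 lower. In glycolysis, the enzyme gene gapdh averaged 403 ± 90.4 CPM in Select against 284 ± 50 CPM in Commercial (mean ± SD, n = 5 each; adjusted p = 0.401).

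Genes of liver and muscle origin, complement and growth signalling depended on Select replicate 1. Of 12 tested complement genes 11 lay above 0 (49.2% of all features). An unadjusted p under 0.05 was reached by 6, all higher (5.53% of all features), and the list median was 0.92. Without that library 1 was higher and 2 were lower at that threshold, and the median was 0.09. The membrane-attack gene c9 measured 997 CPM in Select replicate 1, 0.123 to 0.853 CPM in the other Select libraries and 0.545 to 3.83 CPM in Commercial. The regulator cfh measured 1497 CPM, 2.56 to 7.63 CPM and 1.85 to 13.5 CPM in the same order. Fold changes without this library were -1.84 for c9 and -0.22 for cfh on the log2 scale.

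The liver list had a median of 1.84 with all libraries and of -0.82 without Select replicate 1, when 9 of its 11 members lay below 0 and 2 of them had an unadjusted p under 0.05. The retinol carrier gene rbp4 measured 407 CPM in Select replicate 1, 4.63 to 8.65 CPM in the other Select libraries and 7.18 to 29.3 CPM in Commercial. Commercial replicate 5 had the highest liver share in its group, at 0.0974%, with tfa at 166 CPM. For growth hormone, IGF, insulin and mTOR signalling, 14 of 25 tested genes lay below 0 with all libraries (50.7% of all features), with a median of -0.06. Without Select replicate 1, 21 of the 25 lay below 0, against 16972 of the 32166 features, and the median was -0.37. In that fit 3 were lower at an unadjusted p under 0.05 (5.19% of all features) and 0 were called. The IGF-binding genes igfbp7 (-0.57, adjusted p = 0.510) and igfbp3 (-0.97, adjusted p = 0.525) had the lowest unadjusted p of that list with all libraries. Neither was among those 3 without Select replicate 1, where edgeR gave unadjusted p of 0.0952 and 0.0807.

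**Figure D4:**
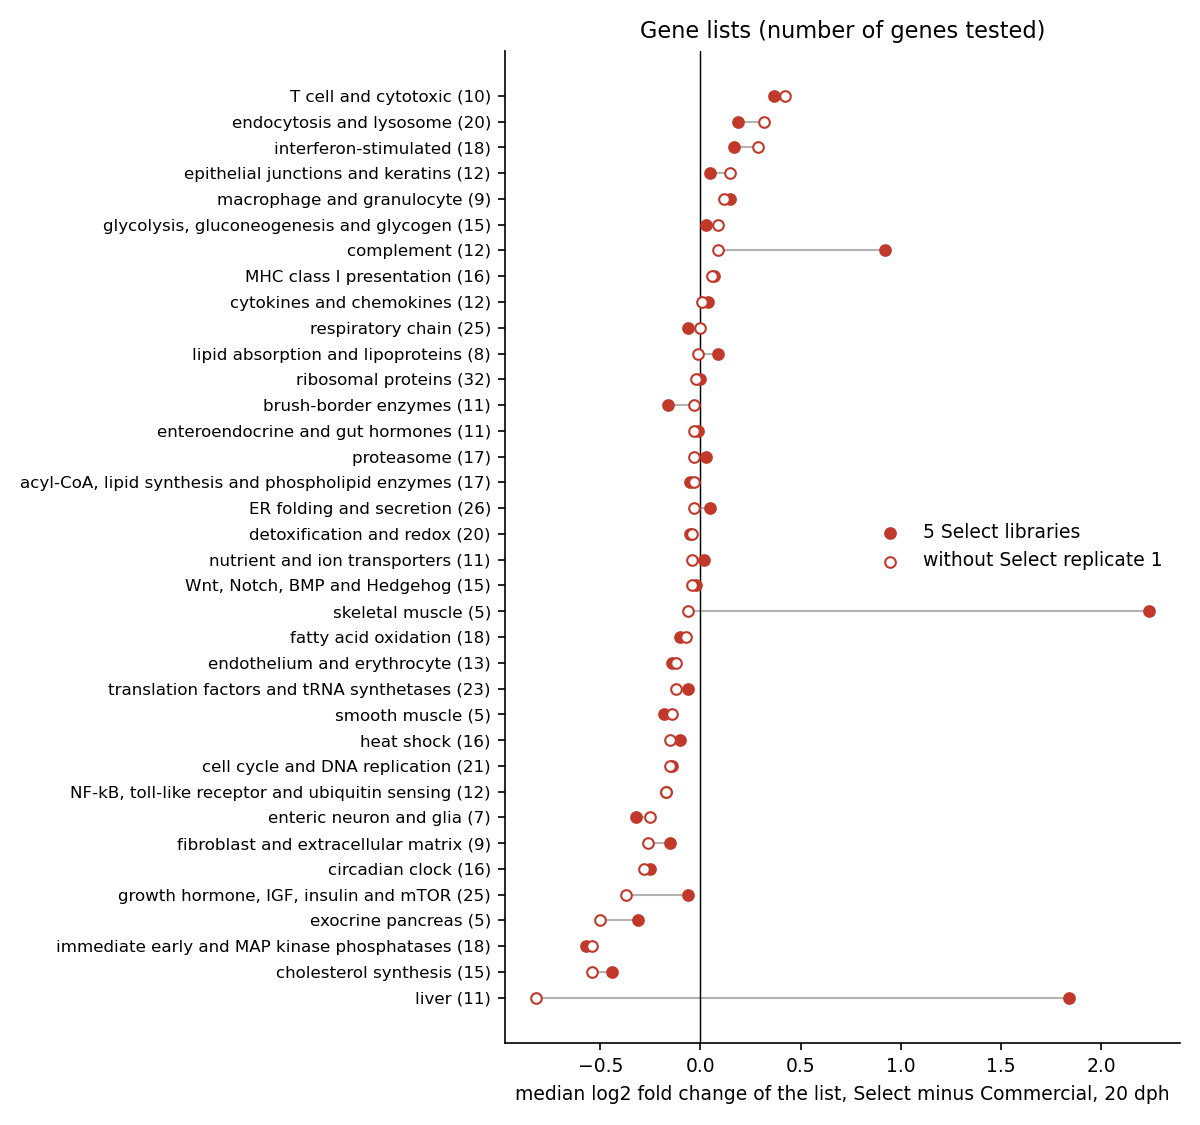
Median log2 fold change (Select minus Commercial, 20 dph) of each gene list with at least 5 tested genes, with the number tested in brackets; filled points use all 5 Select libraries and open points leave out Select replicate 1. The liver list goes from 1.84 to -0.82, skeletal muscle from 2.24 to -0.06 and complement from 0.92 to 0.09, while immediate early genes stay at -0.57 and -0.54 and T cell genes at 0.37 and 0.42.

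Without Select replicate 1, edgeR called 46 of 33171 features (0.139%), 34 higher (0.102%) and 12 lower (0.0362%). An unadjusted p under 0.05 was reached by 5.6% in the higher and 5.19% in the lower direction. The 2 sets of calls shared 31 features, which is 31 of 51 and 31 of 46. The 20 features that were lost kept their sign, with adjusted p no higher than 0.0847. Of the 15 gained, 3 had a symbol. The membrane transporter gene mfsd10 measured 15.3, 22.8, 28.0, 27.2 and 24.6 CPM in Select and 13.0, 17.4, 17.7, 15.3 and 14.1 CPM in Commercial, so that only Select replicate 1 lay within the Commercial range (0.73 without it, adjusted p = 0.0270; 0.61 and 0.0894 with it). In the same fit xip had a log2 fold change of 0.54 (adjusted p = 0.0414) and prr13 of 0.62 (adjusted p = 0.0446), each called higher in Select. With all libraries these were 0.44 (adjusted p = 0.155) and 0.49 (adjusted p = 0.215).

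Most called features have no symbol, and the gene table gives them no function. The gene LOC110527189 measured 46.9, 48.8, 35.6, 32.8 and 40.8 CPM in Select and 21.0, 21.3, 20.5, 18.7 and 13.7 CPM in Commercial (1.1 ± 0.14 SE). It had the lowest adjusted p of all features, 0.0111, stayed called with each of the 10 libraries left out (adjusted p 0.00903 to 0.0299) and was called in all 7 other settings. For LOC110497312 the Select values of 9.03, 10.8, 10.7, 9.14 and 10.6 CPM stood against 4.21, 3.24, 3.82, 5.29 and 3.47 CPM (1.32 ± 0.20 SE, adjusted p = 0.0201; 0.0627 without Commercial replicate 2). LOC110529561 averaged 17 ± 4.09 CPM in Select against 5.76 ± 1.99 CPM in Commercial (mean ± SD, n = 5 each; 1.56, adjusted p = 0.0201), and its call ended without Commercial replicate 2 or 4 (adjusted p up to 0.0627). None of these 3 genes overlapped between strains.

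Several called genes were near 0 in one strain. LOC110530755 measured 29.5, 21.8, 26.1, 16.7 and 0.738 CPM in Select and 0.116 to 1.09 CPM in Commercial. Select replicate 5 lay inside the Commercial range and the other 4 far above it (4.99 ± 0.96 SE, adjusted p = 0.0431). LOC110501547 measured 3.05 to 5.76 CPM against 0 to 0.448 CPM (4.25 ± 0.82 SE, adjusted p = 0.0431), and LOC110505715 2.44 to 9.96 against 0.232 to 1.2 CPM (3.33 ± 0.59 SE, adjusted p = 0.0291). LOC110538122 ran from 6.43 to 12.2 CPM in Select and from 0.348 to 2.94 CPM in Commercial (3.09 ± 0.50 SE, adjusted p = 0.0276), where Commercial replicate 3 held the 2.94. At a higher level, LOC110531552 measured 84.0, 76.4, 58.7, 80.7 and 67.9 CPM against 14.4, 10.7, 16.9, 29.4 and 24.8 CPM (1.94 ± 0.37 SE, adjusted p = 0.0431). The calls of LOC110530755 ended with 9 of 10 libraries left out and those of LOC110501547 and LOC110531552 with any, their adjusted p staying at or under 0.115. The calls of LOC110505715 and LOC110538122 ended with 7 and 4 of them. Of the 7 other settings, 3 kept the call of LOC110530755, 4 that of LOC110501547 and 5 that of LOC110531552. LOC110505715 and LOC110538122 each stayed called in 6.

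One gene with a symbol had the same shape. The gene mrps21, for a protein of the small mitochondrial ribosomal subunit, measured 12.2, 20.7, 14.8, 7.92 and 17 CPM in Select and 0.985, 0.927, 0.654, 2.00 and 0.719 CPM in Commercial. The strains were far apart (3.77 ± 0.75 SE), with an adjusted p of 0.0510 that missed the threshold. The genes mrps21 and piwil1 were picked from genes whose strains do not overlap, so their separation was fixed by the choice. The germline Argonaute gene piwil1 measured 2.68 to 6.39 CPM in Select and 0.353 to 1.62 CPM in Commercial (1.85 ± 0.43 SE, adjusted p = 0.0964). At the lower side, LOC110536261 averaged 6.23 ± 0.550 CPM in Select against 11.1 ± 2.21 CPM in Commercial (mean ± SD, n = 5 each; -0.83, adjusted p = 0.0276) and was called, with its call ended by 5 of the 10 libraries.

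Of the 25 called single transcripts, 3 had 4 libraries at 0 counts in one strain. Transcript XM_021572001.1 held 10, 42, 121, 103 and 106 counts in Select and 0, 0, 0, 0 and 1 in Commercial (adjusted p = 0.0291). Transcript XM_021616890.1 held 60, 63, 78, 59 and 53 counts in Select and 8, 0, 0, 0 and 0 in Commercial (adjusted p = 0.0304). Transcript XM_021576807.1 had the reverse pattern, with 0, 0, 0, 4 and 0 counts in Select and 4551, 13, 4171, 1298 and 5133 in Commercial (adjusted p = 0.0431). No fold is given for these, since it would depend on the few counts of the low strain. XM_021616875.1 measured 6.16, 8.15, 14.3, 7.80 and 7.74 CPM in Select and 32.2, 75.7, 101, 172 and 29.5 CPM in Commercial (-3.21 ± 0.56 SE, adjusted p = 0.0291). Leaving out 1 library ended these 4 calls for 9, 8, 10 and 7 of the 10 libraries. In the same order, 6, 4, 5 and 5 of the 7 other settings kept them.

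One called transcript was higher and one called gene lower in Select, with neighbouring accession numbers. Transcript XM_021569856.1 measured 84.4, 118, 105, 96.7 and 86.9 CPM in Select and 7.52, 12.6, 6.76, 3.41 and 8.39 CPM in Commercial (3.66 ± 0.64 SE, adjusted p = 0.0291). LOC110494624 measured 88.8, 127, 92.2, 102 and 96.1 CPM in Select and 194, 197, 182, 213 and 158 CPM in Commercial (-0.90 ± 0.15 SE, adjusted p = 0.0276). The accession number of the transcript falls between those of the transcripts that the gene table assigns to LOC110494624, but the table does not hold that transcript. This was noticed after the values were seen. Added together the 2 features averaged 199 ± 27.6 CPM in Select against 197 ± 19.8 CPM in Commercial (mean ± SD, n = 5 each). The sums were 173, 245, 197, 199 and 183 CPM in Select and 202, 210, 189, 216 and 166 CPM in Commercial, so the groups overlapped. Of 15024 tested single transcripts 1315 (8.75%) have an accession number between those of 1 gene, and 2 of the 25 called ones do. For the other, XM_021595358.1, the transcript (1.68) and the gene it falls within, rhbdl2 (0.52), both had positive log2 fold changes.

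The same contrast was set beside these values at 65 dph. Of the 51, 48 had the same sign at 65 dph and all 51 were smaller in size. The features were chosen at 20 dph, which favours larger values there, so the smaller size is a description. An unadjusted p under 0.05 at 65 dph was reached by 25 (all 25 with the same sign), against 6.22% of all features, while edgeR called 0 at that age, where 2000 features had an unadjusted p under 0.05. Without Commercial 65 dph replicate 2, an alternative chosen after the data were seen, 50 had the same sign and 27 of them an unadjusted p under 0.05, against 14.1% of all features. The 65 dph contrast rests on no 20 dph library beyond the shared estimate of the spread. Features called at 20 dph are in part those with a small shared spread, which also lowers their p at 65 dph. All features are therefore not a like comparator, and these counts are a description.

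The values at 65 dph were 0.34 for acsl4a, 0.08 for cd3e, 0.28 for tor2a, 0.31 for slc66a3, -0.50 for dusp1 and -0.19 for nr1d2a. The value of zgc:56585 stayed nearest to that at 20 dph among the genes with a symbol, at 0.76, and that of XM_021576807.1 was again far below 0. The difference between ages had an unadjusted p under 0.05 for 37 of the 51, which is a description for the same reason. Over all features the difference of the strain effect between 65 and 20 dph was called by edgeR for 0 and reached an unadjusted p under 0.05 for 1781 (5.54%), while DESeq2 called 66 and limma-voom 0. Medians at 65 dph were -0.33 for immediate early genes, 0.16 for the clock, -0.48 for cholesterol synthesis and 0.10 for T cell genes.

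**Figure D5:**
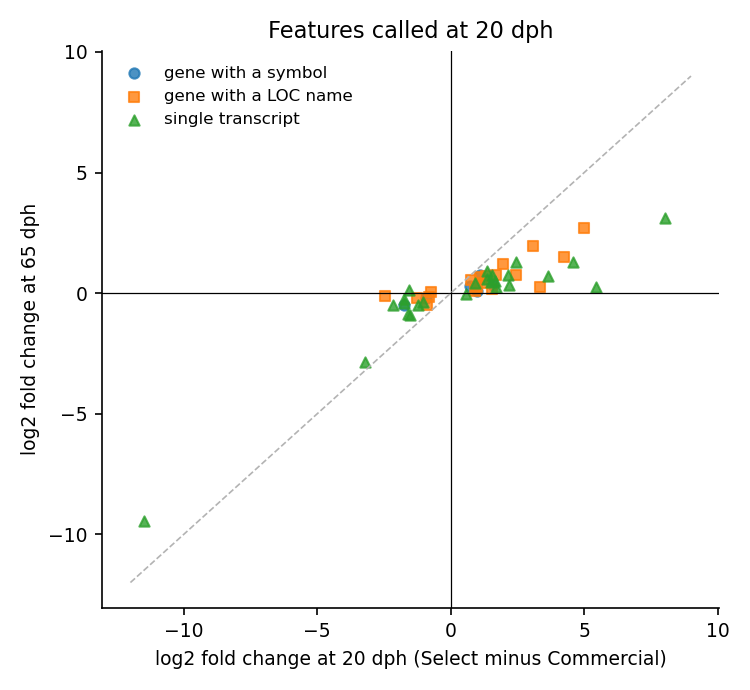
Log2 fold change (Select minus Commercial) at 20 dph (x axis) and 65 dph (y axis) of the 51 features called at 20 dph, by kind of feature; the dashed line marks equal values. All 51 lie closer to 0 at 65 dph, and 48 keep their sign.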

How the data were processed

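Poly(A) RNA was sequenced as stranded paired reads, per the labels' protocols. Expected counts and TPM per transcript were made by the authors with Salmon 1.2.1, per the submitters' processing notes and the file headers. No source used here gives the transcript set or build. Of 78931 transcripts, 42376 matched the RefSeq gene table of USDA_OmykA_1.1 without version and were summed to 25115 genes; 36555 stayed single, and an unmatched transcript is missing from its gene's sum. Matched genes held 66.5% of reads and those with a symbol 23.4%, so lists see a minority of reads. Salmon divides reads between near-identical copies.

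Sums were rounded and tested with edgeR 4.0.16 (R 4.3.3): TMM, filterByExpr, and robust glmQLFit of all 4 groups (20 libraries) with 2-sided quasi-likelihood tests, with Benjamini-Hochberg adjustment over 32166 features. Calls need an adjusted p under 0.05, and an adjusted p with no tool beside it is edgeR's. Levels are CPM. The SE was obtained by dividing the log2 fold change by the root of its F statistic. DESeq2 1.42.0 and limma-voom (limma 3.58.1) were alternatives. The deposited TPM only checked the tissue.

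Named genes were all called ones with a symbol, the called features without one and largest fold changes, genes with a symbol and separate groups ranked by p, and up to 4 members per list. The features shown are a selection from these. Members, the 40 lists and rules were chosen with earlier results of these data known. Fits were checked on simulated counts.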

Additional observations from a re-analysis of the deposited data

Results flagged for a closer look

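Within groups of 5 libraries, 33 of 190 sets of values had 1 library far from the other 4. The rule used flags about 1 in 20 sets of normally distributed values. That rate does not apply here, because CPM were used unlogged and several genes were named with the extreme library already known. Many flags also share a library, so they are not independent, and their number was not tested. In Select replicate 1 there were 10: tfa at 9604 CPM, cfh at 1497 CPM, c9 at 997 CPM, apoba at 728 CPM, pvalb1, a muscle parvalbumin, at 488 CPM, rbp4 at 407 CPM, ckmb at 342 CPM, and the shares of counts of the liver (2.2%), complement (0.373%) and skeletal muscle (0.128%) lists. For each, the other 4 Select libraries lay below.

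Commercial replicate 5 stood above its group for fkbp5 (217 CPM), insig1 (193 CPM), tfa (166 CPM), dusp1 (49.2 CPM), klf9 (29.3 CPM), rbp4 (29.3 CPM), cfh (13.5 CPM), il7r (4.67 CPM), XM_021572001.1 (0.120 CPM, against 0 in the others) and the endothelium and erythrocyte list (0.0195% of counts). Select replicate 5 stood above its group for fkbp5 (37.2 CPM).

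Among the other libraries, Commercial replicate 1 stood apart for tcf7 (1.88 CPM) and XM_021616890.1 (0.716 CPM), replicate 3 for LOC110538122 (2.94 CPM) and psb8 (13.4 CPM), and replicate 4 for slc66a3 (8.94 CPM), mrps21 (2.00 CPM) and decr1 (121 CPM). Select replicate 2 stood apart for lbp/bpi-1 (15.2 CPM). Select replicate 3 stood apart for XM_021616875.1 (14.3 CPM) and, on the low side, lonp2 (99.9 CPM). Select replicate 4 stood apart for LOC110536261 (7.19 CPM) and XM_021576807.1 (0.488 CPM).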

How the results depend on the processing

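The 51 calls between strains became 52 with RLE scaling, 31 without a filter on low counts, 51 with a stricter filter, 442 with DESeq2, 105 with limma-voom, 45 in a fit of the 10 libraries at 20 dph alone and 20 with the replicate block. These were not always the same features. Of the 51, only 26 were also called in the fit of the 10 libraries alone. DESeq2 shared 50 of them, limma-voom 36 and the replicate block 17. Leaving out 1 of the 20 libraries gave 5 to 71 calls: 5 without Commercial 20 dph replicate 2, 7 without Commercial 4, 10 without Select 4, 13 without Commercial 1, 16 without Select 2, 26 without Select 3, 27 without Commercial 3, 28 without Select 5, 31 without Select 65 dph replicate 1 and 71 without Commercial 65 dph replicate 2. Without Select 20 dph replicate 1 the 46 calls became 20 without a filter, 567 with DESeq2, 152 with limma-voom and 7 with the replicate block. They became 40 in a fit of the remaining 20 dph libraries alone, which shared only 13 of the 46. Same-numbered libraries correlated in their deviations by -0.0199 to 0.067, so the numbers were not taken as pairs. The 0 calls for the difference between ages became 66 with DESeq2 and 0 to 2 with 1 library left out. The 706 features whose strains do not overlap became 968 to 1329 with 1 library left out, where fewer samples are compared. The cause of the other shifts was not tested.

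Among named genes, the range over the fits with 1 of the 10 libraries left out spanned 0 for apoba (-0.11 to 1.39), c9 (-1.84 to 7.44), cfh (-0.22 to 6.74), tfa (-1.64 to 6.98), rbp4 (-0.82 to 3.32) and pvalb1 (-1.45 to 5.63). The negative value came each time from the fit without Select replicate 1. With limma-voom quality weights c9 (-0.64), ckmb (-0.25) and pvalb1 (-1.17) turned sign. Of the 1439 combinations of a named gene and an alternative, 1219 kept direction and side of the threshold, 181 lost the call, 30 gained one and 9 turned sign. Only a gene called in the main fit could lose a call, and most named genes were not called. The 1219 therefore do not measure how stable the calls are. Of 612 for list medians, 605 moved by less than the SD between replicates of the list mean and 7 by more.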
